A study of Mus musculus with 4 samples.

Results

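The genes of the cytoplasmic ribosome's own proteins were examined for open chromatin at their promoters in mouse Th17 cells, a class of CD4 T lymphocyte named for its cytokine interleukin 17. The members were chosen by name from the protein-coding genes of the GENCODE M21 annotation of mm10. They are the symbols that start with Rpl or Rps and a number, together with Rplp0, Rplp1, Rplp2 and Rpsa, and they leave out the Rps6k kinases, names with -ps and Rps19bp. This gave 85 genes of 21938 protein-coding genes. The study assayed 1 group, primary Th17 cells of strain C57BL/6NJ, in 4 biological replicates that carry the same donor identifier, with no treatment, genotype or second cell type beside them. Age and sex are not stated in the labels. The assay was ATAC-seq, which reads out where a transposase can reach and cut the DNA. The region names of all 4 lists also carry the words 72hrs and ASTARR.insert, which nothing in the labels explains, so the time and the kind of library behind the signal are known only as far as the assay's name. The labels point to a differentiation protocol for CD4 T cells, whose details were not used here. Each replicate had its own deposited list of open regions.

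Ribosomal proteins assemble with ribosomal RNA into the large subunit, which forms peptide bonds, and the small subunit, which reads the mRNA, and the acidic stalk proteins recruit the elongation factors. Their mRNAs are known for a terminal oligopyrimidine start, a C followed by further pyrimidines at the cap, through which mTOR signalling controls their translation. T cells make ribosomes in large amounts when they are activated to grow and divide. Most of these proteins are made in every cell, while a few paralogs and retrogenes, which are extra copies of a parent gene, are restricted to tissues such as testis or striated muscle.

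A gene's promoter counts as open here if all 4 lists place a region within 1 kb of any one of its transcription start sites (TSS). The lists held 83904, 85127, 85293 and 84137 regions in replicates 1 to 4. To check the label, Il17a, Il17f, Il23r, Ccr6, Cd3e and Cd4 were looked up and were open in 4 replicates, while the B-cell gene Ms4a1, the myeloid genes Lyz2 and Csf1r, the hepatocyte genes Alb and Apoa1 and the muscle genes Myh1 and Acta1 were open in 0. The deposited lists hold no read counts, so depth is unknown, and the spread between the 4 replicates is the only error given. Whether the replicates came from separate animals or cultures is not stated beyond their numbers and the donor identifier they share. So this spread may be partly technical and may hold no variation between animals. With 4 replicates of 1 group no exact sign-flip test can pass a threshold of 0.05, so the values below are descriptions without a test.

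Of the 85 ribosomal protein genes, 81 (95.3%) had an open promoter, against 13648 of 21938 protein-coding genes (62.2%). All 43 large-subunit genes, all 31 small-subunit genes with Rpsa counted among them, and all 3 stalk genes were open, and the exceptions were paralogs. The 4 genes that were not open, Rpl10l, Rpl39l, Rpl3l and Rps27rt, had no promoter region in any of the 4 replicates. The start-site sequences of 2 of them are printed here beside those of their parents, to set a copy without a region beside an original with one. They come from RefSeq on GRCm38.p6, cover 100 bases before the RefSeq start and 20 after it, and read 5′ to 3′. Capitals mark any match to the 9 promoter strings searched below and a pyrimidine tract near the start, and a match on the other strand appears as its reverse complement.
Rpl10l: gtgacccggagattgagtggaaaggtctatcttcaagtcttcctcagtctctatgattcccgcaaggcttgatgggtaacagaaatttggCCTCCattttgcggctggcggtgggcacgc
Rpl10: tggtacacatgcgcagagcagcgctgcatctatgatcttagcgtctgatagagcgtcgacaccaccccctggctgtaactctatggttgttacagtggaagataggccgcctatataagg
Rpl39l: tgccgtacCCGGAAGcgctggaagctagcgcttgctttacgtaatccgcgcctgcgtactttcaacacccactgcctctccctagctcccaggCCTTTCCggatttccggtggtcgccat
Rpl39: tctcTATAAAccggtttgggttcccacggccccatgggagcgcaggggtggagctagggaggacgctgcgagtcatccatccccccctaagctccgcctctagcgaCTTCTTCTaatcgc
These windows lie at chr12:66284382-66284501 (minus strand) for Rpl10l, chrX:74270716-74270835 (plus) for Rpl10, chr16:10170128-10170247 (plus) for Rpl39l and chrX:37085203-37085322 (minus) for Rpl39. The Rpl39l line holds the ETS string and a tract of 7 pyrimidines and the Rpl10l line a tract of 5, although neither promoter had a region here. The summits of the parents fell outside the printed windows, at -402, -402, -218 and -402 bp from the RefSeq start of Rpl10 and at -254, -347, -256 and -282 bp from that of Rpl39, where a negative distance is upstream. The RefSeq start of Rpl39 lies 180 bp downstream of the GENCODE TSS used for its openness. Rpl10l, an autosomal copy of the X-linked Rpl10 that is known from testis, had 0 bases in open regions within 5 kb of its TSS, and so had Rpl39l, the testis-expressed copy of Rpl39. Rpl3l, the paralog of Rpl3 in striated muscle, had no region within 1 kb but 1766 ± 9.43 bp (SD, n = 4) of open regions within 5 kb. Rps27rt, a retrogene of Rps27, had 1944 ± 77.6 bp within 5 kb and likewise none within 1 kb. How reads that match several places were treated is not given in the sources used here, so a lack of regions at near-identical copies such as Rps27rt is uncertain.

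The other 4 of the 8 paralogs were open, and their promoters ranked above the middle by signal. The signal of a region is the authors' enrichment over background, which is not normalised between replicates, so it was ranked within each replicate among the strongest promoter region of each of the 13648 open genes. A signal percentile of 50 is the middle of that ranking. Rps27l, the paralog of Rps27 known as a p53 target, had signal values of 13.6, 14.3, 13.4 and 14.2 in replicates 1 to 4 and a signal percentile of 78.9 ± 4.14 (SD, n = 4). Rpl36al, an autosomal copy of the X-linked Rpl36a, had signal values of 14.0, 14.0, 12.7 and 12.8, at percentile 74.5 ± 2.69. All 4 replicates of Rps27l and Rpl36al lay above the middle of the ranking. The start of Mgat2 lies 74 bp from that of Rpl36al on the other strand, so this region cannot be assigned to either gene. Rpl7l1, a relative of Rpl7 that takes part in assembly of the large subunit, had signal percentiles of 67.5, 67.2, 67.1 and 78.7, so replicate 4 was the highest. Rpl22l1, the paralog of Rpl22, had percentiles of 62.8, 61.2, 58.7 and 60.1. The median over these 4 paralogs was 71.9 ± 2.50, against 29.0 ± 1.21 over the 77 genes that are not paralogs. Their parents did not share 1 level. Rps27 lay at percentile 57.4 ± 1.69, Rpl36a at 57.9 ± 5.44, Rpl7 at 37.9 ± 2.78 and Rpl22 at 69.5 ± 5.44.

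Although nearly all were open, ribosomal protein promoters carried low signal. Their median signal was 8.18 ± 0.259, against 10.6 ± 0.273 over all open promoters (SD of the 4 replicate medians). In replicates 1 to 4 the member median was 8.30, 8.33, 7.79 and 8.29, against 10.8, 10.9, 10.4 and 10.4 for all open promoters, so the member median was lower in each of the 4. The median signal percentile of the members was 30.1 ± 1.55, with replicate values of 30.7, 29.7, 28.1 and 31.8, against 50 for all open promoters. By mean percentile, 34 of the 81 lay below 25, 24 between 25 and 50, 20 between 50 and 75 and 3 above 75. Below percentile 25 of signal in all 4 replicates there were 29 members (35.8%), against 20.9% of all open promoters. Above percentile 75 in all 4 there were 2 members (2.47%), Rps29 among them, against 19.8%. Both subunits had low medians. The large-subunit genes had a median percentile of 28.9 ± 2.15 and the small-subunit genes one of 29.8 ± 1.42, a gap smaller than the spread between replicates. By -log10 q, the significance the peak caller gave each region, the large-subunit median percentile was 44.3 ± 2.46 and the small-subunit one 49.0 ± 1.5, and the large-subunit value was the lower in each of the 4 replicates. By signal the stalk genes had a median percentile of 28.3 ± 2.50. Rplp0, the scaffold of the stalk, lay at a signal percentile of 57.7 ± 4.66, Rplp2 at 28.3 ± 2.50 and Rplp1 at 19 ± 2.62. By -log10 q the stalk median was 61.7 ± 3.48, above those of both subunits, but with 3 genes it is the value of Rplp2 alone. Rplp0 lay at a -log10 q percentile of 89.7 ± 1.19 and Rplp1 at 47.2 ± 4.65, below the small-subunit median.

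**Figure D1:**
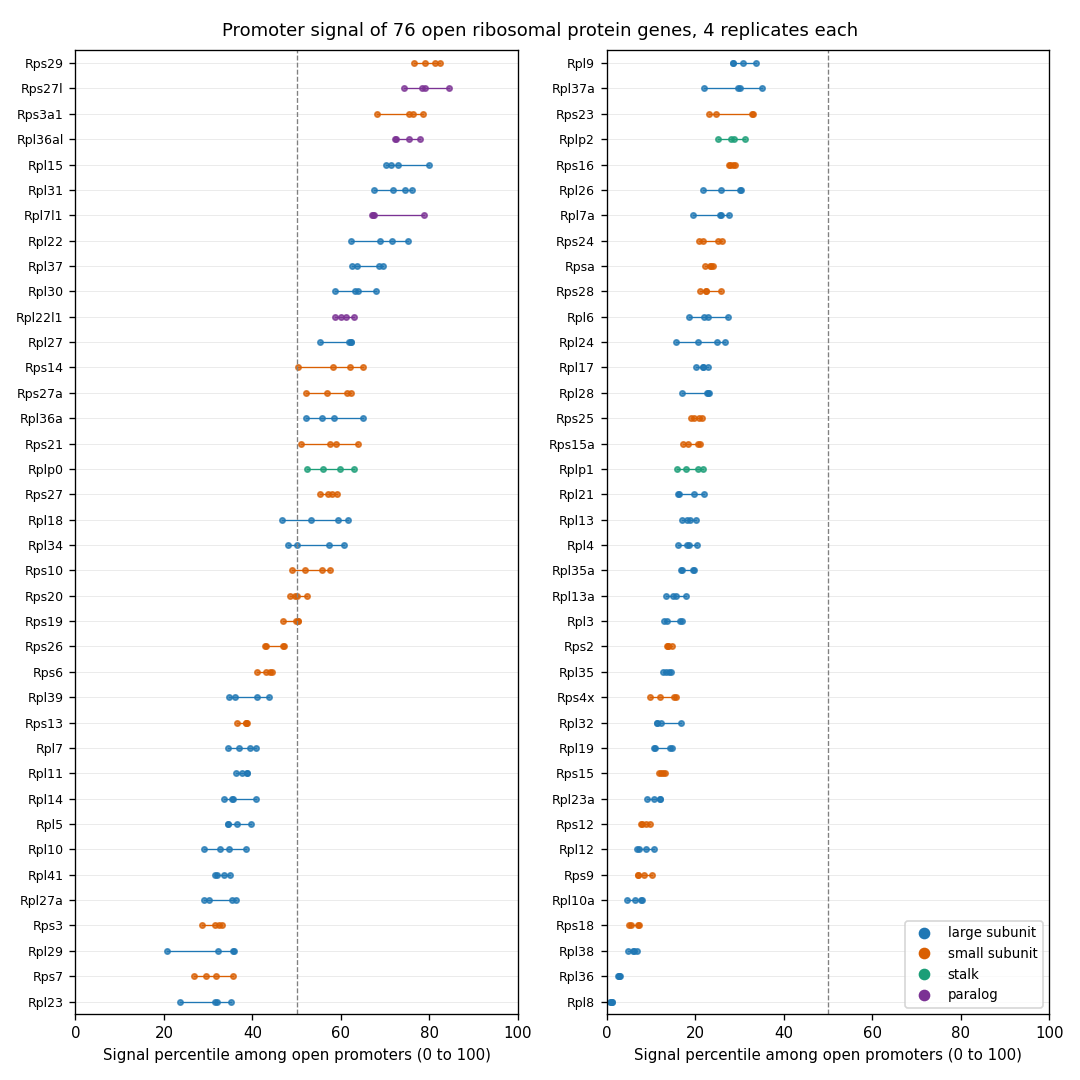
Signal percentile of 76 of the 81 open ribosomal protein promoters, with 1 point for each of the 4 replicates and a line over their range, ordered by mean and coloured by role. The x axis is the percentile among 13648 open promoters and the dashed line its middle, and 58 of all 81 genes have a mean below 50.

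The highest members were not of 1 kind. Rps29, a small zinc-binding protein of the small subunit, had signal values of 14.2, 14.7, 13.2 and 14.0 in replicates 1 to 4. Rps3a1, also of the small subunit, had 13.7, 14.4, 12.3 and 13.3. All of these values lay above the median of all open promoters in their replicate, but the genes were chosen for their high mean percentile. Rps29 reached percentile 79.7 ± 2.56 and Rps3a1 74.6 ± 4.45. Of the large subunit, Rpl15 stood at 73.6 ± 4.40, Rpl31 at 72.5 ± 3.82, Rpl22 at 69.5 ± 5.44 and Rpl37 at 66.0 ± 3.53. Rpl22 is known for its need in the development of alpha-beta T cells. These genes and the paralogs Rps27l, Rpl36al and Rpl7l1 are among the 10 highest.

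The lowest members stayed low in every replicate, although their order changed in part. In replicate 3, for example, Rpl38 at percentile 6.07 lay above Rps18 at 5.02 and Rpl10a at 4.56. Rpl8, a large-subunit protein next to the peptidyl transferase centre, had signal values of 2.77, 2.78, 2.64 and 2.63 and lay at percentile 0.993 ± 0.232. Rpl36 had 3.21, 3.30, 3.32 and 3.39, at percentile 2.77 ± 0.126. Rpl38, whose loss in the mouse alters the axial skeleton, had 4.03, 3.77, 4.15 and 4.28, at percentile 5.89 ± 0.766. All 12 values lay below every value given above for the highest genes. Both ends were chosen by mean percentile in these same 4 replicates, so this gap follows from the choice. Each of these 3 genes stayed near the bottom of the ranking in every replicate. Rps18 lay at 6.23 ± 1.11, Rpl10a at 6.59 ± 1.52, Rps9 at 8.24 ± 1.5, Rpl12 at 8.45 ± 1.76, Rps12 at 8.61 ± 0.938, Rpl23a at 10.9 ± 1.48 and Rps15 at 12.5 ± 0.579. A low percentile here is a rank among open promoters and not a lack of a region.

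The 4 highest and the 4 lowest open members with a RefSeq promoter are printed to set the sequences at the ends of the ranking side by side, with the window and the capitals as above. The 4 highest come first.
Rps27l: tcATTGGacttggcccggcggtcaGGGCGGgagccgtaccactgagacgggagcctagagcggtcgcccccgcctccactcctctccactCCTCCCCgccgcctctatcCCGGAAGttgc
Rps3a1: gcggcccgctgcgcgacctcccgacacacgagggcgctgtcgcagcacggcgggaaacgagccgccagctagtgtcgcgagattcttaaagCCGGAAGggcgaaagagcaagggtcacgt
Rpl36al: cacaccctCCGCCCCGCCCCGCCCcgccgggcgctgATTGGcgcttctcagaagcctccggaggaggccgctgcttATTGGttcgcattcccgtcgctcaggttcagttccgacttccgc
Rpl15: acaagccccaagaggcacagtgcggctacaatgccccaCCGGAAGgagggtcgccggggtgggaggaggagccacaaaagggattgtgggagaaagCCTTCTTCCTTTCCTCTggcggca
The 4 lowest follow.
Rps9: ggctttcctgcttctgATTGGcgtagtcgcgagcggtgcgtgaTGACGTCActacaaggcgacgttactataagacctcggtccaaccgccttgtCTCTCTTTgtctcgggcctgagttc
Rpl10a: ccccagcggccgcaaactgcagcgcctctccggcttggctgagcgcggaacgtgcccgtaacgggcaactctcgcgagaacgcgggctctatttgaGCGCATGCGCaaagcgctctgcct
Rps18: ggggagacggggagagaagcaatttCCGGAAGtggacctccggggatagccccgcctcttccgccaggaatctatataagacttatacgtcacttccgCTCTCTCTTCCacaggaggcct
Rpl38: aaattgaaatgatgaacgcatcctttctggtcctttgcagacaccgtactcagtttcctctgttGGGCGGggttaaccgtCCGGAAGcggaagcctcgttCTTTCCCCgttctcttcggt
The highest lie at chr9:66945986-66946105 (plus strand), chr3:86142649-86142768 (minus), chr12:69184048-69184167 (minus) and chr14:18270967-18271086 (minus). The lowest lie at chr7:3703941-3704060 (plus), chr17:28328465-28328584 (plus), chr17:33955646-33955765 (minus) and chr11:114668480-114668599 (plus). The ETS string CCGGAAG stands in the lines of Rps27l, Rps3a1 and Rpl15 and also in those of Rps18 and Rpl38, so it is found at both ends. Rpl15 begins 4 bases before its RefSeq start a run of 17 pyrimidines, and Rps18 begins 2 bases before its start a run of 11. The region summits, the positions of highest enrichment, lay at -94, -98, -94 and -93 bp from the RefSeq start at Rps27l and at -113 bp in all 4 replicates at Rps3a1. At Rps9 they lay between -106 and -104 bp, and at Rpl38 they lay at 520 to 525 bp, outside the printed window.

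RefSeq promoters of 250 bases before to 50 bases after the start were at hand for 65 of the 85 members and for 16522 protein-coding genes, of which 10596 were open. The other 20 members, among them Rpl17, Rpl21, Rpl23a, Rpl29, Rpl3, Rpl30, Rpl32, Rpl36, Rpl7, Rpl8, Rplp1, Rps14, Rps20, Rps27a and Rps29, had no entry. The RefSeq start lay within 100 bp of the GENCODE TSS used here for 53 of the 65. A tract that starts with C and holds at least 5 pyrimidines began within 10 bp of the start in 35 members (53.8%), against 31.2% of all promoters and 31.7% of open ones. At the annotated first base itself such a tract stood in 13 members (20%), against 2.17% of all promoters. The ETS string CCGGAAG, on either strand as for all strings, was found in 24 members (36.9%), against 12.4% of all promoters and 17.8% of open ones. ETS factors, among them GABPA, are known at promoters of housekeeping genes. The string lay a median of 67.0 bp from the summit in the 23 open members that held it, and within 100 bp of it in 15. Only 250 bases before to 50 after the start were searched, and the nearest match was taken. The same distance over all open promoters is not given here, so these values do not set the members apart. The median signal percentile of the 23 open members with the ETS string was 33.0, against 28.8 in the 38 open members without it. For the GC box, searched next, it was 33.4 in the 38 open members with it and 23.4 in the 23 without. It was lower with the CCAAT box, 25.9 against 31.4, and with the YY1 string, 19.3 in 5 members against 30.7. The widest gaps were at rare strings, TATA with 48.32 in 6 members against 30.35 and AP-1 with 49.93 in 2 against 30.55. For the CRE it was 26.95 in 5 against 30.73, for NRF1 29.16 in 3 against 30.73 and for the E-box 30.55 in 5 against 30.63. With a tract near the start it was 30.9 against 30.45, and with 1 at the start 32.31 against 30.55.

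The other strings differed less or were rarer. The CRE string TGACGTCA was found in 5 members (7.69%), against 2.41% of all promoters and 3.25% of open ones. The YY1 string AAGATGGC was found in 5 (7.69%), against 3.29% and 4.50%. The GC box GGGCGG was found in 39 (60.0%), against 48.5% of all promoters but 65.8% of open ones. The CCAAT box CCAAT was found in 20 (30.8%), against 38.6% and 38.0%, and the TATA string TATAAA in 6 (9.23%), against 12.9% and 6.93%. The NRF1 string GCATGCGC was found in 3 (4.62%), against 3.79% and 5.33%, and the E-box CACGTG in 5 (7.69%), against 8.06% and 10.03%. The AP-1 string TGANTCA was found in 2 (3.08%), against 6.94% and 4.78%. No string contains another, but the reverse complement of the ETS string, CTTCCGG, starts with 5 pyrimidines and can itself count as a tract near the start. The ratio of observed to expected CpG had a median of 0.870 in the members, against 0.602 in all promoters and 0.766 in open ones. These are letter matches, which describe the windows and show no binding.

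**Figure D2:**
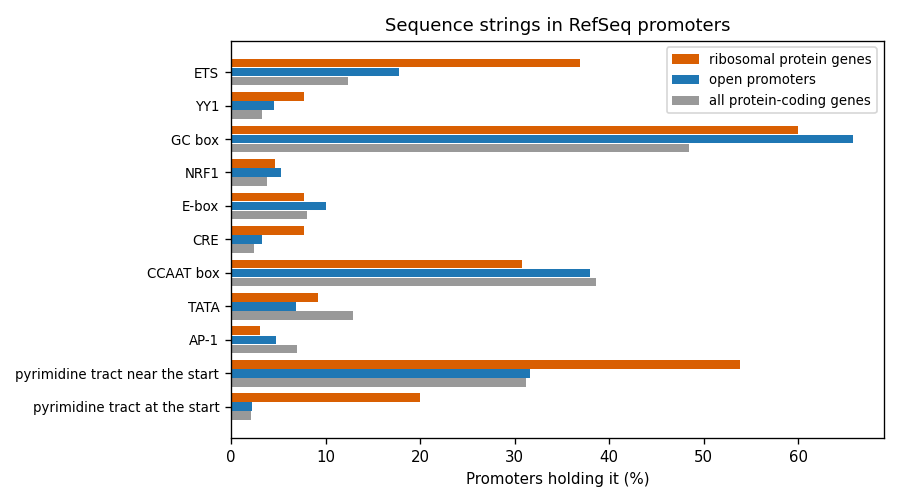
Share of RefSeq promoters that hold each string, in percent, for the 65 ribosomal protein genes, the 10596 open promoters and the 16522 promoters of all protein-coding genes. The ETS string (36.9% of the members) and the tracts near (53.8%) and at (20%) the start stand above both other bars. So do the rarer CRE and YY1 strings (7.69% of the members each).

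The rank of the members depended on which deposited value was read. By the -log10 q of the same regions the median percentile of the members was 49.4 ± 1.55, with replicate values of 49.7, 50.04, 47.1 and 50.6. In all 4 replicates the -log10 q percentile lay above the signal percentile in 69 of the 81 members (85.2%), against 43.0% of all open promoters. With regions also chosen by -log10 q, 14 members stood above percentile 75 in all 4 replicates and 5 below percentile 25, against 22.0% and 22.2% of all open promoters. Rpl13a, a large-subunit protein, is an example. Its signal percentiles were 17.9, 15.7, 13.3 and 14.9 and its -log10 q percentiles 81.8, 80.1, 71.7 and 75.8. Its regions span 45128410 to 45129654 on chromosome 7. Rpl8, the lowest by signal, also stayed low by -log10 q, at percentile 10.3 ± 0.814. Rpl13a was chosen as an example after its values were seen.

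**Figure D3:**
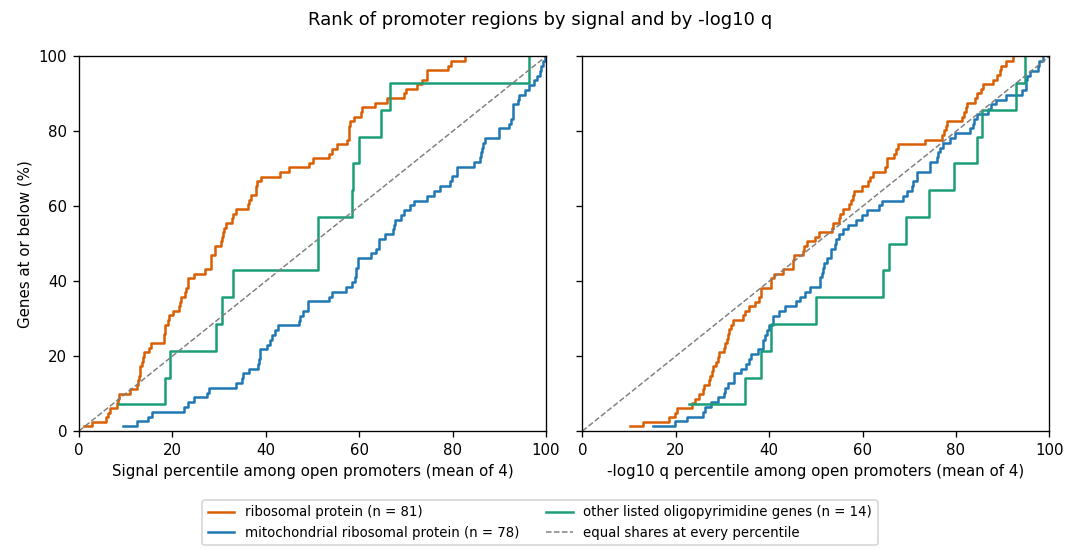
Cumulative share of genes (y axis, percent) at or below each percentile (x axis, mean of the 4 replicates) by signal on the left and by -log10 q on the right, for 81 ribosomal protein, 78 mitochondrial ribosomal protein and 14 other listed oligopyrimidine genes. The dashed line marks equal shares at every percentile, and the curve of the ribosomal protein genes lies above it over most of its range by signal, with a median of 30.1, and crosses it near the middle by -log10 q, with a median of 49.4.

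Genes of related function were set beside them. The mitochondrial ribosome, which is built from a separate set of nuclear genes, had 78 of 78 promoters open. Its median signal percentile was 63.8 ± 1.10, against 30.1 ± 1.55 for the cytoplasmic ribosome, and the replicate ranges of the medians, 62.7 to 65.1 and 28.1 to 31.8, did not overlap. By -log10 q its median was 54.9 ± 0.202, closer to the 49.4 ± 1.55 of the cytoplasmic genes. The 14 other translation genes known for oligopyrimidine starts, such as Eef1a1, Eef2, Tpt1 and Pabpc1, were all open, with a median signal percentile of 51.3 ± 4.22 and a -log10 q percentile of 67.6 ± 3.37. They were widely spread, with the elongation factor gene Eef2 at a signal percentile of 8.56 ± 2.16 and the initiation factor gene Eif3f at 96.4 ± 0.199. Ribosomal proteins outside the naming rule were low as well. Fau, a fusion of a ubiquitin-like protein with a small-subunit protein, lay at a signal percentile of 9.40 ± 1.33, and Rack1, a scaffold on the small subunit, at 28.6 ± 3.81. The start of Mrpl49, a mitochondrial ribosomal protein gene, lies 59 bp from that of Fau on the other strand, so the region of Fau is also counted in the mitochondrial list. Rps27a, the ubiquitin fusion that the rule did include, lay at 58.1 ± 4.72.

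Members with more open chromatin around the promoter had lower signal ranks. Members had a median of 1838 ± 56.2 bp in open regions within 5 kb of the TSS, against 1568 ± 36.6 bp for all open promoters, and 2 other regions within 10 kb, against 1. Across the 81 members Spearman's correlation of the signal percentile with these open bases was -0.548 ± 0.044 (SD over the 4 replicates), against -0.377 ± 0.034 across the 13648 open promoters. Both measures come from the same list in each replicate, and genes are not independent replicates, so it is a description. Rpl36, Rpl8 and Rpl10a, among the lowest by signal, had 4367 ± 232, 4179 ± 267 and 4044 ± 97.1 bp of open regions within 5 kb. Rps29, near the top, had 1472 ± 8.34 bp. Ranked only within 10 bins of genes with similar open bases, the members had a median percentile of 32.4 ± 1.88, against 30.1 ± 1.55 without bins, so the median stayed below the middle of the ranking. Within 10 bins of promoter CpG the median was 24.0 ± 1.30, against 30.7 ± 1.65 for the 61 open members with a RefSeq promoter without bins. The correlation of the signal percentile with CpG was -0.047 in those 61 members and 0.161 in the 10596 open promoters. The other oligopyrimidine genes had medians of 39.6 ± 4.55 in the bins of open bases and 23.9 ± 2.67 in those of CpG. In the CpG bins they were thus as low as the members, while without bins they stood at 51.3 against 30.1. The mitochondrial ribosomal protein genes had 60.4 ± 3.52 and 57.6 ± 1.81.

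**Figure D4:**
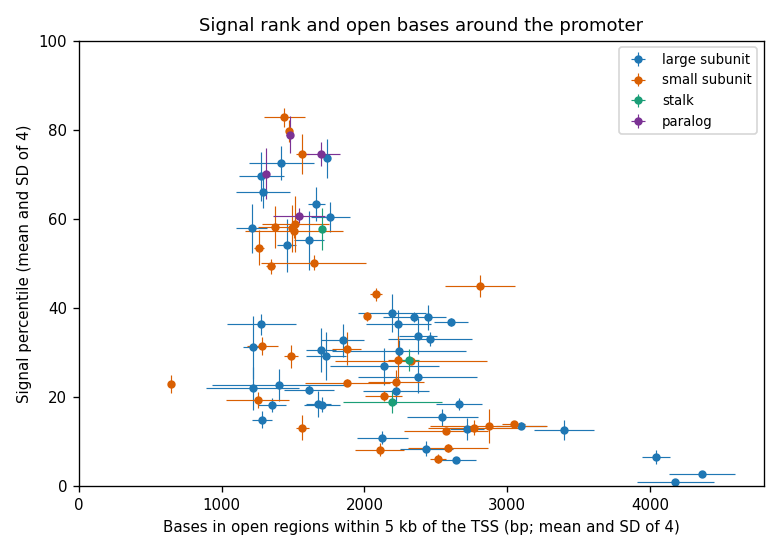
Signal percentile (y axis, mean and SD of 4 replicates) against the bases in open regions within 5 kb of the TSS (x axis, bp, mean and SD of 4) for the 81 open members, coloured by role. Rpl36, Rpl8 and Rpl10a, with 4367, 4179 and 4044 bp, lie at the lower right, and the correlation across the members averaged -0.548.

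Summits lay close to the start, and more often upstream of it, in the members than in open promoters as a whole. The median summit lay at -36.2 ± 3.30 bp from the representative TSS, on the upstream side, against -6.75 ± 1.89 bp over all open promoters. In all 4 replicates the summit was upstream in 48 members (59.3%), against 44.1% of all open promoters, and downstream in 17 (21%), against 40.1%. It lay within 100 bp of the TSS in all 4 replicates in 52 members (64.2%), against 36.0%. The summit also moved little between replicates, with a median range of 13.0 bp in the members and 43.0 bp in all open promoters. Several members had the summit in 1 place in all 4 replicates. Examples are Rps3a1, at -79 bp, Rps27a, at -144 bp, and Rpsa, the laminin receptor homologue of the small subunit, at -35 bp. Rpl24, at 89 bp, and Rpl35, at 350 bp, had it fixed downstream. With the 5′ end of the gene as TSS, the member median was -19.5 ± 7.0 bp, against 30.8 ± 0.957 bp for all open promoters, and the summit was upstream in all 4 replicates in 40 members (49.4%), against 34.2%. The upstream position was also seen in the 14 other oligopyrimidine genes, whose median summit lay at -78.2 ± 13.9 bp.

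Several members had summits far from the start. Rpl7 had its summit at -715, -725, -731 and -731 bp in replicates 1 to 4, in a region 2446 ± 25.4 bp wide. Rpl4 had it at -503 bp in all 4 replicates, and the start of Zwilch, on the other strand, lies 271 bp from the Rpl4 start. Rpl10, the X-linked gene of a protein needed for the subunits to join, had it at -398, -398, -214 and -398 bp. Rpl32 had a mean of -213 bp. Downstream, Rpl41, the gene of the smallest ribosomal protein, had its strongest summit 1479, 1479, 1479 and 1474 bp into the gene, beyond the promoter window that the region reached. Rpl38 had it 576 to 581 bp downstream and Rpl35 350 bp downstream in all 4. Rpl30, and Rpl5, whose protein carries the 5S RNA into the large subunit, averaged 289 and 192 bp downstream. Rpl30 ranged from 265 to 314 bp and Rpl5 from 101 to 288 bp over the replicates, and at Rpl32 replicate 2 had -22 bp and the others -281 to -275 bp.

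**Figure D5:**
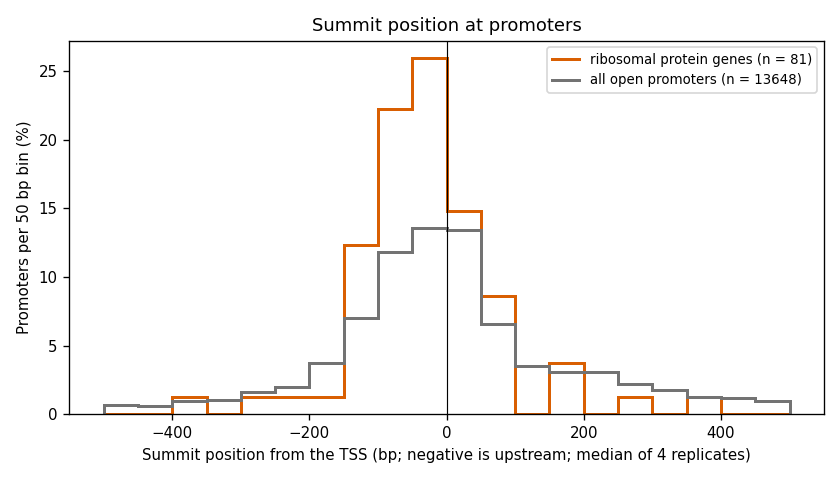
Share of promoters (y axis, percent) by summit position from the TSS (x axis, bp, negative is upstream, median of the 4 replicates) in 50 bp bins, for the 81 open members and all 13648 open promoters. The tallest member bin, from -50 to 0 bp, holds 25.9% of members against 13.6% of all open promoters, and 4 members and 2695 promoters lie outside the axis.

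Member regions were slightly narrower than others, with a median of 1267 ± 49.6 bp against 1358 ± 38.4 bp for all open promoters. The member medians of 1214, 1236, 1311 and 1308 bp in replicates 1 to 4 were each below the 1334, 1317, 1399 and 1380 bp of all open promoters. The widest was at Rpl36, with 3117 ± 470 bp, followed by Rpl7, Rpl10a with 2260 ± 97.3 bp, Rpl41 with 2072 ± 725 bp and Rpl38 with 1984 ± 20.6 bp. The narrowest were at Rpl8 with 631 ± 102 bp and Rps28 with 642 ± 16.8 bp, then Rpl28, Rpl21 and Rps23 at 829 ± 49.0, 830 ± 90.6 and 833 ± 28.4 bp. So the lowest genes by signal included both wide and narrow regions. The correlation of the signal percentile with width was 0.252 ± 0.049 in the members and 0.011 ± 0.035 in all open promoters. More than 1 promoter region in any replicate was found at 7 members (8.64%), against 13.5% of all open promoters. These were Rpl31, Rps14, Rpl18, Rpl41, Rpsa, Rpl24 and Rps15, and only Rps14 and Rpl18 had more than 1 in every replicate.

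The replicates ranked the members alike. Spearman's correlation of signal between pairs of replicates ran from 0.969 to 0.983 across the 81 members, with a mean of 0.976, against a mean of 0.975 across all open promoters. The most variable was Rpl29, with signal percentiles of 32.2, 35.7, 20.7 and 35.9, so replicate 3 was the low one. Rpl18 followed, with 59.3, 61.5, 46.8 and 53.3, again lowest in replicate 3, then Rps14, with 58.2, 62.0, 50.3 and 64.9. Rpl34 and Rpl7l1 complete the 5, and their high replicates were 2 and 4. The region names of replicates 1 and 2 carry the tag KS134 and those of replicates 3 and 4 the tag KS136, with no explanation of either. Both KS134 replicates lay above both KS136 replicates in signal percentile in 16 members (19.8%), against 23.6% of all open promoters. The reverse held in 14 (17.3%), against 17.9%. The shares of the members in both directions were near those of all open promoters. With 2 replicates a tag no exact test can go below p = 0.333.

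Genomic setting varied among the members. The 4 X-linked genes were all open, with Rpl36a at a signal percentile of 57.9 ± 5.44, Rpl39 at 38.9 ± 4.23, Rpl10 at 33.7 ± 3.97 and Rps4x, an X-linked small-subunit gene, at 13.2 ± 2.76. Another protein-coding start lay within 1 kb of 12 members (14.1%), against 10.7% of all protein-coding genes. Their partners are Med22 for Rpl7a, Lrsam1 for Rpl12, Lias for Rpl9, Trappc4 for Rps25, Zwilch for Rpl4, Clhc1 for Rps27a, Mgat2 for Rpl36al, Nkiras1 for Rpl15, Iqcg for Rpl35a, RPS10-NUDT3 for Rps10, Ndufa7 for Rps28 and Vps52 for Rps18. RPS10-NUDT3 carries the name of Rps10 and lies on the same strand, with its start 323 bp away, so it may not be a separate neighbour. The other partners lie on the opposite strand. A region at any of these pairs cannot be assigned to either gene. The median signal percentile was 23.7 ± 2.45 in these 12 and 31.1 ± 1.83 in the 69 other open members.

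Ribosomal protein pseudogenes, which are mostly processed copies of the mRNA without the parent's promoter, were rarely open. Of 301 annotated pseudogenes 14 (4.65%) had a region within 1 kb of their start in all 4 replicates, against 432 of 9940 processed pseudogenes (4.35%), which is near the same share. With a window of 500 bp 5 were open, but the share of all processed pseudogenes at that window is not given here. Rpl29-ps2 had the strongest regions, with a mean signal of 16.1 ± 0.666, and lies 160 bp from a protein-coding TSS. Rpl14-ps1, inside Trpm4, had 15.2 ± 0.907, and its summit lay at -1036 bp from its start. Of the 6 protein-coding genes with -ps in their names, which the naming rule leaves out, Rpl9-ps6 was open in 4 replicates and the other 5 in 0.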

How the data were processed

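Only the 4 peak lists, 1 per replicate on mm10 per the labels, were used. The members and gene lists were chosen with earlier results of these data known. The deposited signal is the authors' enrichment over background for each region. The deposited -log10 p and -log10 q are per region, and only the -log10 q was used. The deposited display score was not used. The deposited start, end and summit are other values in bp. The sources used here give neither aligner nor caller, and depth is unknown. Regions were joined to the GENCODE M21 basic transcripts with Python 3.11.15, numpy 2.4.6 and scipy 1.17.1. The basic set, in place of all transcripts, was chosen after both had been seen. A gene's strongest promoter region gave its signal, its rank among open promoters, its width and its summit. The representative TSS was that of the transcript ranked first in the annotation. Protein-coding type was ranked first, then the label of a principal isoform (APPRIS), and then the transcript support level. Positions were tested on simulated regions. Errors are SDs of 4 replicate values. Named genes are the paralogs, the genes that were not open, the extremes of signal rank (10 at each end), of width and summit position (5 at each end) and of replicate spread (5), those with several promoter regions, those on X, and Fau and Rack1. Some genes that these rules name are not reported here. Other members appear as examples chosen after their values were seen. Alternatives covered the window, peak threshold, summit, TSS, region, rank measure, replicates and sequence window.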

Additional observations from a re-analysis of the deposited data

Results flagged for a closer look

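A test of the gap between 1 replicate and its nearest neighbour was made on 93 quantities, 81 of them member signals. It marked 6, of which 5 were member signals, and chance marks about 1 in 20. Rpl30 had a signal of 11.3 in replicate 3, below 12.4 to 12.5 in the others. Rpl7 had 8.56 in replicate 3, below 9.28 to 9.42. Rpl23 had 7.20 in replicate 3, below 8.49 to 8.67. Rps15 had 5.24 in replicate 3, below 5.46 to 5.48. Rpl14 had 9.77 in replicate 2, above 8.67 to 8.71. The median summit of the mitochondrial ribosomal protein genes lay 7.0 bp downstream of the TSS in replicate 2, nearer than the 20 to 22 bp downstream in the others. Replicate 3 also had the lowest median signal of all members, 7.79 against 8.29 to 8.33. Whether that lower level has a part in the marked values was not tested.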

How the results depend on the processing

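Of 127 results under alternatives, 113 stayed within the spread between replicates or within 1.5 times the count, and 14 moved. The number of open members was 80 or 81 under every alternative but 1. With the strongest 50000 regions of each replicate it was 68, against 53.3% of all protein-coding genes. Leaving out 1 replicate gave a median signal percentile of 29.8 to 30.9. It moved to 26.0 once regions below a -log10 q of 10 were dropped, to 28.4 with the summit required inside the window, to 49.2 ranked by -log10 q, and, under alternatives chosen after seeing the data, to 32.4 in bins of open bases and 24.0 in bins of CpG. Ranked by -log10 q, 14 members stood above percentile 75 and 5 below percentile 25. The median summit was at -19.5 bp with the 5′ end of the gene as TSS. Open pseudogenes numbered 5 with a window of 500 bp, 8 with the summit inside the window and 22 with at least 2 replicates. The shares of all processed pseudogenes under these settings are not given here. From 100 bp before to 50 bp after the start, 1 member held the E-box, 13 the CCAAT box and 1 the AP-1 string. The causes of these moves were not tested. No paired analysis was possible because the study has only 1 group. The lists hold no counts, so a missing region may be below detection.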
